A study of Mus musculus with 3 samples.

Results

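E14 mouse embryonic stem cells that had received ethanol alone were examined one cell at a time, as a picture of how much expression varies between cells of a single culture in serum and LIF. Members were barcodes of the control library with at least 15000 UMIs (unique molecular identifiers, 1 per captured RNA molecule) of which 1 to 20% came from mitochondrially encoded genes. There were 2187 such cells, out of 6480 chosen by the same limits in the 3 libraries of the study. E14 is an established line of 129/Ola background, grown here on gelatin in medium with 15% fetal bovine serum and leukemia inhibitory factor (LIF). The control cells were exposed to ethanol for 6 h, starting 24 h after seeding. The other libraries, used only for values set side by side, came from cells given 250 µg/mL cycloheximide, an inhibitor of translation elongation, in 0.007% ethanol for 3 h (1739 cells) or 6 h (2554 cells). All cells were trypsinised, frozen and thawed before droplet capture with 10x Genomics 3' v3 chemistry, which reads polyadenylated RNA from its 3' end. Each condition is 1 library, so cells are not replicates, no test between conditions was possible, and all intervals cover counting error only.

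Embryonic stem cells hold the state of the early epiblast, from which all tissues of the body arise. A network of transcription factors around Pou5f1, Sox2 and Nanog maintains that state, and LIF supports it through STAT3 while serum supplies BMP signals that induce Id genes. Such cells divide fast with short gap phases, and cultures in serum and LIF are known for uneven levels of some network members, such as Nanog and Dppa3.

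The control cells held 15102 to 158128 UMIs each, with a median of 43160, and a median of 6038 detected genes. They contained 111447486 UMIs, 87.3% of the UMIs of their library. The mitochondrial share ran from 1.11 to 17.3% with a median of 4.58%, beside medians of 3.52% at 3 h and 2.89% at 6 h. Near the UMI limit lay few barcodes, with 5 at 14000 to 15000 UMIs and 6 at 15000 to 16000. The lower mitochondrial limit left out 62 barcodes of at least 15000 UMIs, whose median share was 0.211%, and the upper limit left out 0. Of mitochondrial shares, 5 fell between 0.75 and 1% and 4 between 1 and 1.25%. The libraries shared 3, 3 and 1 cell barcodes in their pairs. Doublets were not removed, and 212 cells (9.69%) held more than 2 times the median number of UMIs.

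The labelled cell type was checked first against 6 markers. Every value per cell below is the number of UMIs after each cell had been thinned at random to 15000 UMIs, unless CPM (UMIs of a gene per 1000000 UMIs, summed over the cells) is named. Pou5f1, the POU factor at the centre of the pluripotency network (chr17:35506018-35510772, GRCm38), had 533 CPM (95% Poisson interval 528 to 537), and 99.95% of cells held a UMI of it. Its count per cell had a median of 8, with 3 at the 5th and 13 at the 95th percentile. Zfp42, a zinc finger gene known as Rex1, had 455 CPM and a UMI in 99.3% of cells. Sox2, the partner factor of Pou5f1, had 213 CPM and was seen in 92.5% of cells. Nanog, a homeobox factor of the naive state, and Klf4, a LIF-responsive zinc finger factor, were lower. Nanog had 123 CPM with a UMI in 79.8% of cells, and Klf4 had 134 CPM with a UMI in 79.2%. Dppa5a, an RNA-binding protein gene of pluripotent cells, was the most abundant of the 6 with 4771 CPM, a median of 70 UMIs per cell, and 39.3 and 111 at the 5th and 95th percentiles. Levels in CPM from 3'-end counts are set side by side here without correction for gene length, since each molecule is counted once. The same 6 genes were present in free RNA, measured in 67302 barcodes of 10 to 100 UMIs, at 111 (Klf4) to 3533 CPM (Dppa5a), and Pou5f1 was higher there than in cells with 734 CPM. The part of free RNA in the shares of cells with a UMI was not tested. No cell type lacking these genes was found in number in this culture, so no reference share from such a type can be given.

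**Figure D1:**
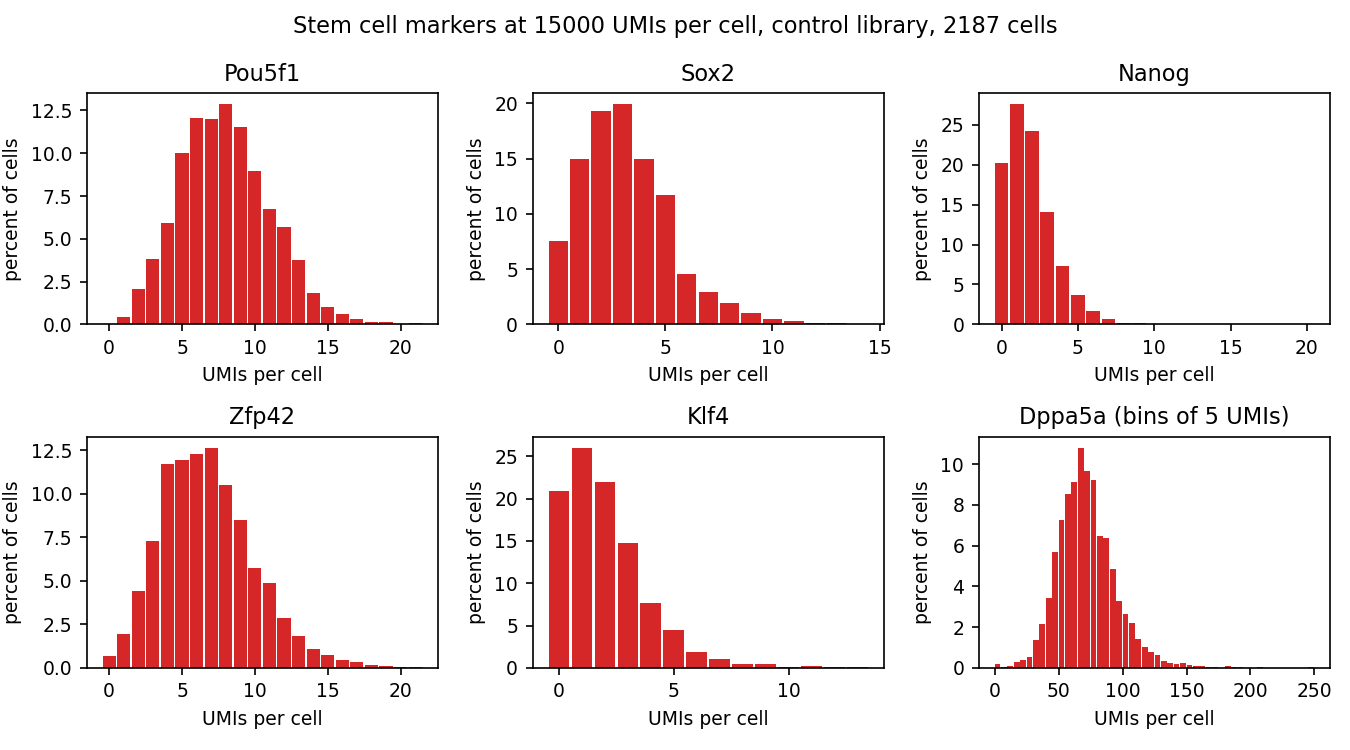
Percent of the 2187 control cells (vertical axes) at each number of UMIs per cell after thinning to 15000 UMIs (horizontal axes), for 6 stem cell markers. The bars at 0 UMIs hold 20.2% of cells for Nanog and 20.9% for Klf4, and the median of Dppa5a is 70.

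Markers of other cell types were low in the sums. The fibroblast list summed to 3.88 CPM with 4 of 9 genes at 0, the primitive streak list to 2.75 CPM over 8 genes, and the list for 2-cell-like cells to 0.718 CPM with 5 of 10 measured genes at 0. The trophectoderm list summed to 44.7 CPM, mostly Krt8 with 24.2 CPM, and 1 of its 10 genes was at 0. The neuroectoderm list summed to 83.8 CPM, of which the tubulin gene Tubb3 made 65.3, and the germ cell list to 64.4 CPM. The primitive endoderm list summed to 211 CPM, of which Sparc, a secreted matrix protein gene also expressed outside that lineage, made 137.

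Ribosomal protein genes dominated the transcriptome. The 10 most abundant genes took 7.11% of all UMIs, the 50 most abundant 24.6% and the 500 most abundant 62.0%, out of 20232 genes with a UMI. Rpl13, a protein of the large ribosomal subunit, led with 10000 CPM (9981 to 10018). It was followed by the mitochondrially encoded genes mt-Atp6 (9726 CPM), mt-Co2 (7592 CPM) and mt-Co3 (7060 CPM), which encode subunits of ATP synthase and cytochrome c oxidase. Of the 20 most abundant genes, 10 encode ribosomal proteins and 4 are mitochondrially encoded. The other 6 were Hsp90ab1 and Hsp90aa1 (cytosolic chaperones), Eef1a1 (translation elongation), Ptma (prothymosin), Tpt1 and Npm1 (a nucleolar chaperone). Of the 100 most abundant, 64 encode ribosomal proteins and 8 are mitochondrially encoded.

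Per cell, the 81 measured ribosomal protein genes took 12.4 to 41.7% of UMIs with a median of 25.3%, and 90% of cells lay between 21.6 and 28.9%. Heat shock genes ranged from 0.966 to 2.86% around a median of 2.07%. Replication-dependent histone genes, which package newly made DNA, spread far more in proportion, from 0.0038 to 0.986% of UMIs with quartiles at 0.0917 and 0.434%. Most histone transcripts of this kind end without a poly(A) tail and their genes are near copies of each other. How reads were divided among the copies is not given in the sources used here, so single histone genes are uncertain in that respect.

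Variation between cells was expressed as the excess squared coefficient of variation (CV), the variance of the thinned counts minus their mean, divided by the squared mean. A gene that varies only by counting has a value near 0, and 0.25 corresponds to a spread equal to a fraction 0.5 of the mean. Across the 3794 genes with a mean of at least 0.5 UMIs the median was 0.0615, with quartiles at 0.0302 and 0.117. Of these genes, 274 (7.22%) reached 0.25. Among the 424 genes with a mean of at least 5 UMIs, where counting noise is smaller, the median was 0.0301 and 12 (2.83%) reached 0.25. Over 5 random thinnings the value of a gene moved by 0.0565 at the median among all genes and by 0.00688 among those with a mean of at least 5. In the cycloheximide libraries the medians were 0.0626 at 3 h and 0.0644 at 6 h. Of the 3501 genes above the floor in all 3 libraries, 214 reached 0.25 in the control, and 144 of those (67.3%) did so in both other libraries.

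**Figure D2:**
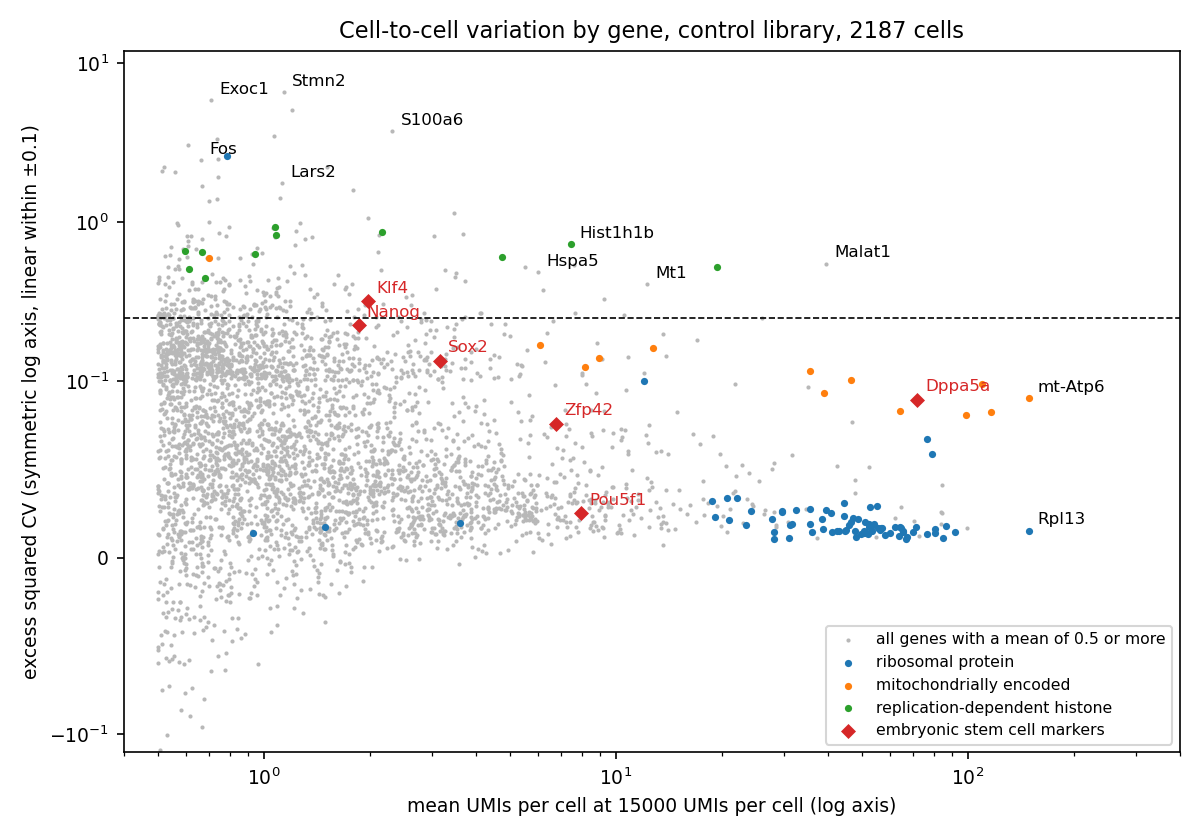
Mean UMIs per cell (horizontal, log axis) against excess squared CV (vertical, symmetric log axis) for the 3794 genes with a mean of at least 0.5 UMIs in the control library, all cells thinned to 15000 UMIs. The dashed line marks 0.25. Ribosomal protein genes lie near 0 with a median of 0.017, except Rpl39l at 2.62, histone genes all lie above the line, and the 6 markers run from 0.025 for Pou5f1 to 0.318 for Klf4.

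The markers differed among themselves in this measure. Pou5f1 had the lowest value of the 6 with 0.025 (0.025 to 0.037 over the 5 thinnings), near the median of 0.0301 for genes with a mean of at least 5, followed by Zfp42 with 0.076 and Dppa5a with 0.090. Sox2 had 0.135, Nanog 0.225 and Klf4 0.318. Over the 5 thinnings Nanog ranged from 0.195 to 0.253 and so lay on either side of 0.25, while Klf4 ranged from 0.303 to 0.339. In the 3 h and 6 h libraries Klf4 had 0.251 and 0.237, Nanog 0.191 and 0.230, and Pou5f1 0.036 and 0.029.

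The 10 lowest values among genes with a mean of at least 5 UMIs included the following genes, in an order that rests on a single thinning. Nudt21, a cleavage and polyadenylation factor, had 0.003 (0.003 to 0.019 over 5 thinnings), Hmgn1, a nucleosome-binding protein gene, 0.007, and Cct4, a chaperonin subunit gene, 0.008. Also among them were Ndufs6 (respiratory complex I), the noncoding Gm10076 and the ribosomal protein genes Rpl41, Rpl4 and Rps3a1, of which the latter 4 each had 0.011. For Rpl41 the 5th and 95th percentiles were 50 and 85 UMIs around a median of 66.

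Among genes with a mean of at least 5 UMIs the highest values belonged to genes of several kinds. Hist1h1b, a linker histone gene, had an excess squared CV of 0.729, with a median of 6 UMIs per cell, 0 at the 5th and 21 at the 95th percentile. Hist1h2ap, a core histone gene, had 0.525, with 0, 18 and 45 UMIs at the same percentiles. Malat1, a nuclear long noncoding RNA, had 0.549, with 8, 33 and 92 UMIs. Slc25a4, the mitochondrial ADP/ATP carrier, had 0.523, and Hspa5, the main chaperone of the endoplasmic reticulum, 0.485 with a cell of 94 UMIs against a median of 5. Mt1, a metallothionein, had 0.407, and Ube2c, an E2 enzyme of the anaphase-promoting complex, 0.375. Apoe, a lipid carrier, Ifitm3, an interferon-inducible membrane protein, and Spp1, osteopontin, had 0.328, 0.267 and 0.263. Of the 12 genes of this range at 0.25 or more, 10 were so in both cycloheximide libraries, where the floor of 5 was not applied. Of the 3501 genes above a mean of 0.5 in all 3 libraries, 237 at 3 h and 284 at 6 h reached 0.25.

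With the floor at a mean of 0.5 UMIs, the 25 most variable genes ran from 0.989 (Srebf2) to 6.57 (Stmn2). In free RNA, 11 of them, including Exoc1, Xaf1, Gfod2, Gm49756, Hook2, Wdcp, Lars2, Plk4, Dennd5b and Srebf2, stood at 2 times or more their level in cells. Xaf1, for example, had 464 CPM in free RNA and 78.4 CPM in cells, and Exoc1 had 209 and 46.2 CPM. Over all 3794 genes the median ratio of free RNA to cells was 0.892, and 27 genes (0.712%) reached 2, of which 16 were among the 274 variable genes. Lars2 and the noncoding Gm42418 had the widest gap, with 10238 against 66.6 CPM and 118951 against 1544 CPM. Those 2 genes and the noncoding AY036118 also fell with the total UMIs of a cell, with r of -0.20, -0.54 and -0.56 against log10 UMIs before thinning. The part of free RNA in the variation of these genes was not tested. The limit of 2 was chosen after the values were seen.

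The other 14 of the 25 had free RNA at 0.491 to 1.61 times the cell level. S100a6, a calcium-binding protein gene, had 3.75, Rpl39l, a ribosomal protein paralog, 2.62, and Cald1, an actin-binding protein gene, 2.52. Fos, an immediate early transcription factor, had 2.47, with 34.6% of cells holding a UMI, a highest count of 18, and 55.5% of its UMIs in the 10% of cells where it was highest. Id3, a BMP-induced inhibitor of DNA binding, had 1.69, Fabp3, a fatty acid carrier, 1.60, and Sdc4, a heparan sulfate proteoglycan gene, 1.40. Of the 25 genes, 23 were at 0.25 or more in both other libraries. The exceptions were Dnajc3 and Pola2. The floor of 0.5 was not applied in those libraries for this count. Fos had means of 0.296 and 0.105 UMIs at 3 h and 6 h, Ahnak 0.377 and 0.263, and Xaf1 0.332 at 6 h. Among all genes above the floor there, 337 of 4133 at 3 h and 381 of 4203 at 6 h reached 0.25. Dnajc3, an endoplasmic reticulum cochaperone, had 2.07 against 0.289 and 0.101. Pola2, a DNA polymerase alpha subunit, had 1.00 against 0.081 and 0.125. Single high cells can carry much of such values. In the control the highest count and the 99th percentile were 38 and 3 UMIs for Dnajc3, 19 and 4 for Pola2, and 48 and 5 for Cald1.

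Stmn2, a stathmin that binds tubulin (chr3:8509360-8561606), stood out by splitting the cells. It was at 0 in 1712 cells (78.3%), at 1 or 2 UMIs in 187 (8.55%), and at 3 or more in 288 (13.2%, exact binomial interval 11.8 to 14.7). The shares at 3 or more were 13.6% in the 3 h library and 13% in the 6 h library. Its level in free RNA was 67.0 CPM against 71.7 CPM in cells. These ranges, and the genes compared across them, were chosen after the values had been seen. Cells at 3 or more had a median of 45759 UMIs before thinning, against 42059 for cells at 0. The highest median was that of the cells at 1 or 2 UMIs, with 56259, and the part of depth in these ranges was not tested.

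Rpl19, Rpl23 and Psmb3, which lie near each other on chromosome 11, moved with Stmn2, although Stmn2 lies on chromosome 3. Other genes between them are not reported here. Rpl19 (chr11:98026710-98030492) averaged 99.1 UMIs in cells with 3 or more Stmn2 UMIs and 74.8 in cells with 0, a ratio of 1.32. Rpl23 (chr11:97777527-97782437) averaged 97.1 and 72.3, a ratio of 1.34, and the proteasome gene Psmb3 (chr11:97703399-97713500) 10.5 and 7.71, a ratio of 1.36. The ratios recurred in the other libraries, with 1.37 and 1.34 for Rpl19, 1.39 and 1.38 for Rpl23, and 1.29 and 1.31 for Psmb3 at 3 h and 6 h. The other 75 ribosomal protein genes above the floor had ratios of 0.971 to 1.08 with a median of 1.01. Epop and Psmd3, which lie on either side of Psmb3, Rpl23 and Rpl19, had 1.08 and 0.819. Mrps28, near Stmn2 (chr3:8802146-8923918), had 1.15, with 1.11 and 1.05 at 3 h and 6 h. Mid1, an X-linked ubiquitin ligase gene, had 1.68, and Slc25a4 on chromosome 8 had 1.46. Fabp5, a fatty acid carrier gene on the same chromosome as Stmn2 (chr3:10012548-10016607), had 1.60. Rpl23 and Rpl19 were the ribosomal protein pair of highest correlation in the library, with r of 0.72 across the cells, and 0.71 and 0.70 in the 3 h and 6 h libraries. Their excess squared CV of 0.067 and 0.059 compares with a median of 0.0171 over the other 75. Dppa3, an oocyte and germline factor known for patchy expression in such cultures, had Rpl23 and Rpl19 as its partners of highest r (0.22 and 0.21), with 0.22 and 0.20 at 3 h and 0.27 and 0.24 at 6 h. These values rest on a mean of 0.0498 Dppa3 UMIs per control cell.

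A second pattern ran along chromosome 1. For each cell the standardised log2 levels of genes with a mean of at least 0.5 were averaged per chromosome, leaving out ribosomal protein, histone and mitochondrially encoded genes. Averages over alternate genes of chromosome 1 (189 genes) correlated across cells with r of 0.51, and averages over the genes before and after its middle gene with r of 0.44. On the other 19 chromosomes the r of alternate genes was -0.01 to 0.26. In the 3 h and 6 h libraries chromosome 1 had 0.52 and 0.55, and the others reached at most 0.25 and 0.27.

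To describe the cells of high level, cells were chosen by an average of 0.25 or more over 95 alternate genes of chromosome 1, a limit set after seeing the distribution, and were read on the 94 genes in between. There were 96 such cells (4.39%, 3.57 to 5.33), and 45 cells lay within 0.05 of the limit. Without them the r of alternate genes was 0.20, and 0.20 and 0.23 at 3 h and 6 h. In them the 94 genes summed to 365 UMIs per cell against 274 in the remaining cells, a ratio of 1.33. The ratio was 1.33 on either side of the middle gene, the median gene had 1.36, and 88 of 94 genes were higher. The other 19 chromosomes had ratios of 0.933 to 1.04, with chromosome 19 highest. Chromosome 19 was also the highest of them at 3 h (1.11) and 6 h (1.04). At 3 h there were 82 such cells (4.72%) with a ratio of 1.38, and at 6 h 129 (5.05%) with 1.35. Total UMIs (39716 and 43343) and mitochondrial shares (4.63 and 4.58%) were near each other in these and the remaining control cells at the median. Of the 96 cells, 38 (39.6%) held 3 or more Stmn2 UMIs, against 250 of the rest (12%). The shares at 3 h were 40.2 and 12.3%, and at 6 h 37.2 and 11.8%. On chromosome 12 the distribution had a lower tail. The 16 control cells (0.732%) at -0.35 or less on alternate genes had a ratio of 0.615 on the 62 genes in between, with the other chromosomes at 0.957 to 1.08. Their median mitochondrial share was 6.37% against 4.57% in the rest, and their median total 36434 against 43200 UMIs, and the part of cell quality in this tail was not tested.

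**Figure D3:**
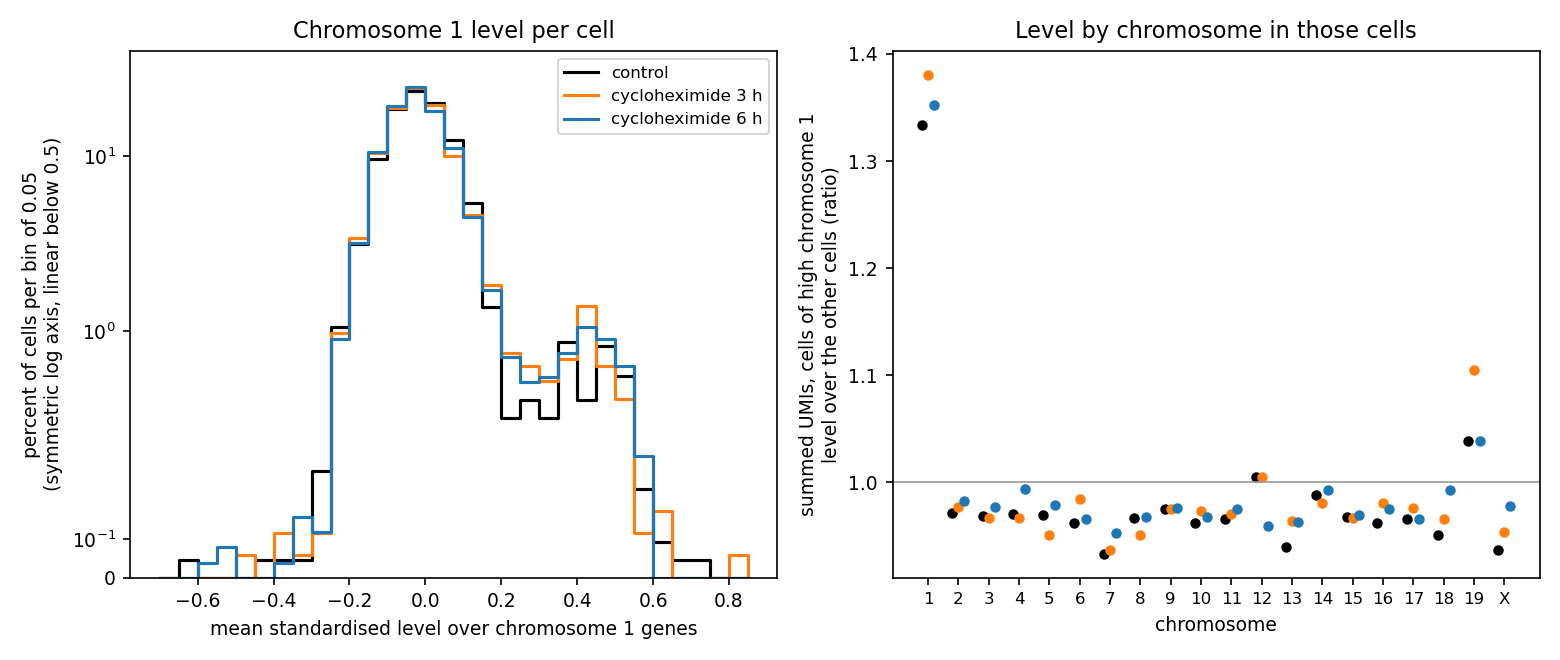
Left, percent of cells (vertical, symmetric log axis) by mean standardised level of chromosome 1 genes per cell (horizontal) in the control, 3 h and 6 h libraries. Right, ratio of summed UMIs between cells of high chromosome 1 level and the other cells for each chromosome; cells were chosen on alternate chromosome 1 genes and the chromosome 1 point uses only the genes in between. A second hump of cells lies above 0.25 in each library, and chromosome 1 alone reaches 1.33 to 1.38 while all other chromosomes lie at 0.933 to 1.11.

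A few cells carried markers of another lineage. The primitive endoderm is the layer that forms yolk sac beside the epiblast, under Gata6, Gata4 and Sox17. Without Sparc, 14 genes of its list summed to 20 UMIs or more in 8 cells (0.366%, 0.158 to 0.719), with 162 in the highest, and the next cell held 10. The 8 cells together held 46.9% of the Gata6 UMIs of the thinned library, 66.7% of Sox17, 62.5% of Dab2 (an endocytic adaptor) and 23.7% of the basement membrane collagen Col4a1. These genes are members of the list that chose the cells, so the shares describe the choice. Gata4 was seen in 7 of the 8 cells, Sox17 in 6, Gata6 and Dab2 in 5 and Foxa2 in 2, while Col4a1, Col4a2, Lama1 and Lamb1 were seen in all 8. The remaining list genes, Sox7, Pdgfra, Cubn, Amn and Srgn, also counted toward the limit and are not reported singly here. Sparc averaged 25 UMIs in the 8 cells and 1.90 in the rest. Of the stem cell markers, Nanog averaged 0.5 against 1.87, Sox2 1.5 against 3.17, Zfp42 2.50 against 6.77, Pou5f1 5.25 against 7.97 and Dppa5a 58.4 against 71.8, while Klf4 was higher with 3.50 against 1.98. The keratins Krt8 and Krt18 averaged 5.62 and 4.50 against 0.333 and 0.0826, but were seen in only 5 and 3 of the 8 cells. The highest cell held 35 of the 45 Krt8 UMIs, and the highest for Krt18 held 31 of 36. The totals of the 8 cells before thinning were 25342 to 125429 UMIs, and 3 of the 8 were above 2 times the library median. The part of doublets was not tested. The 3 h and 6 h libraries had 7 and 6 cells at the same limit. Without the 8 cells the excess squared CV of Sparc went from 1.06 to 0.179. That of Dnajc3 went from 2.07 to 0.085 and that of Fabp3 from 1.60 to 0.598, while S100a6 (3.77) and Cald1 (2.51) kept theirs. Of the 51 Dnajc3 UMIs in the 8 cells, the highest cell held 38. The number of variable genes was 261 without these cells.

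One control cell held 38 UMIs of the 2-cell-like list, with 24 of Zscan4d and 13 of Zscan4c, and it accounted for every UMI of these 2 genes in the thinned cells. It had 0 UMIs of 7 other list genes, Zfp352, Tcstv1, Tcstv3, Usp17lc, Tdpoz4, Tmem92 and Arg2. It also had 20 Nanog UMIs, the highest count of that gene in any cell, with 69 of Dppa5a and 3 each of Pou5f1 and Zfp42, whose medians over cells are 8 and 6. S100a6 had a tail as well. It had a median of 1 UMI, and 17 cells (0.777%) held 25 or more, up to 87, with 4 cells at 20 to 25. By ratio among genes with a mean of at least 0.1 in the other cells, these 17 cells were highest for Sfn, the epithelial 14-3-3 sigma (22.4-fold, 127 UMIs in all), Tnfrsf12a (12-fold, 27 UMIs) and Fgfbp1 (9.58-fold, 22 UMIs). These ratios were 25, 15.4 and 12.3 in the 3 cells at 25 or more S100a6 UMIs at 3 h, and 25.5, 3.81 and 17.6 in the 6 at 6 h. Of the 6 stem cell markers, Nanog was at 0.599 times its mean in the rest, Klf4 at 0.740, Pou5f1 at 0.871, Zfp42 at 0.931, Sox2 at 1.10 and Dppa5a at 1.21. Below the floor of 0.5, the highest ratio of variance to mean belonged to Rhox5, an X-linked reproductive homeobox gene. It had UMIs in 5.53% of cells and a highest count of 22. Krt18, an epithelial keratin, reached 31 UMIs in a cell. Ccn1, a YAP target, had an excess squared CV of 61.0 beside 6.58 at 3 h and 2.25 at 6 h. The control value rests on a mean of 0.0558 Ccn1 UMIs, with 5 cells at 3 or more and a highest count of 20. The means were 0.223 at 3 h and 0.125 at 6 h, so these values are not on a like footing. Several of the 15 most dispersed rare genes stood higher in free RNA than in cells, as did Dqx1 with 251 against 29.9 CPM and Aldh1a3 with 185 against 27.9 CPM.

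Gene lists were then compared by their median excess squared CV, beside 0.0615 for all genes and 7.22% at 0.25 or more. They were not matched for level, and the median was 0.0301 among genes with a mean of at least 5 UMIs. The counts rest on 1 thinning. Over 5 thinnings the value of a gene moved by 0.0565 at the median, so calls of members near 0.25 are uncertain. The 79 ribosomal protein genes above the floor had a median of 0.017, and 1 of them, Rpl39l, reached 0.25. Heat shock genes had 0.052 with 0 of 9, and glycolysis genes 0.061 with 1 of 15, Pfkp. S phase genes had 0.076 with 3 of 35, and mitochondrially encoded genes 0.102 with 1 of 13, mt-Nd6. All 11 histone genes above the floor reached 0.25, from 0.443 (Hist1h2bc) to 0.929 (Hist1h1d), as did the 4 nuclear noncoding RNAs Neat1, Malat1, Kcnq1ot1 and Meg3 (0.477 to 0.820). Of imprinted genes, expressed from 1 parental allele, 7 of 9 reached it, led by the cell cycle inhibitor Cdkn1c with 0.828.

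Among pluripotency genes, the naive list had a higher median than the general one. The lists also differ in level, with sums of 1775 and 8168 CPM, and the part of level in this difference was not tested. The naive list had 0.222 with 4 of 11 at 0.25 or more, and those were Klf4, the orphan receptor Nr0b1 (0.311), Tbx3 (0.295) and Klf2 (0.268). Its evenest members were Zfp42, the orphan receptor Esrrb with 0.099 and Klf5 with 0.129. The general list had 0.104 with 2 of 12, the Klf4-interacting factor gene Zfp296 (0.303) and the RNA-binding Lin28a (0.252). Formative genes mark the step after the naive state, and 4 of 15 passed the floor. Among those, the DNA methyltransferase genes Dnmt3l and Dnmt3a had 0.640 and 0.446, and Tcf15 and Dnmt3b had 0.219 and 0.192.

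Lists of signalling targets had few members above the floor, and their counts are read beside 7.22% of all genes. Of the immediate early genes, 3 of 4 above the floor (13 listed) reached 0.25. These were Fos (2.47), Junb (0.598) and Myc (0.389), and Ier2 with 0.086 did not. Of the Id and BMP list 3 of 4 did (6 listed). Id3 and Id1, targets of BMP signalling, had 1.69 and 0.844, and the inhibitory Smad7 had 0.286. Of the LIF and STAT3 list 3 of 5 did (8 listed). These were the feedback inhibitor Socs3 (0.422), the kinase Pim1 (0.264) and Gbx2 (0.253), and Stat3 itself had 0.140. Of the ERK feedback list 2 of 6 did (8 listed), the phosphatase Dusp6 (0.588) and Spry4 (0.316). The ETS factors Etv4 and Etv5 had 0.102 and 0.092. Of the cholesterol synthesis list 5 of 8 did, with Cyp51 highest at 0.610 and Fdps, a prenyl transferase, lowest at 0.188. Of the p53 targets 3 of 6 above the floor did (13 listed), Mdm2 (0.914), Phlda3 (0.628) and Ccng1 (0.465). Bax, a mediator of apoptosis, had 0.033. Of the endoplasmic reticulum chaperones 4 of 9 reached it, Hspa5, Sdf2l1 (0.313), Pdia4 (0.294) and Manf (0.268), and the oxidoreductase Pdia3 had 0.107. In the integrated stress response list, Trib3 (0.310) and Atf5 (0.307) were 2 of 10, and the central factor Atf4 had 0.228. In the metal and antioxidant list, Mt1, Hmox1 (0.375) and Nqo1 (0.252) were 3 of 8, and in the actin list Tpm4 (0.526) and Tpm1 (0.294) were 2 of 7.

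**Figure D4:**
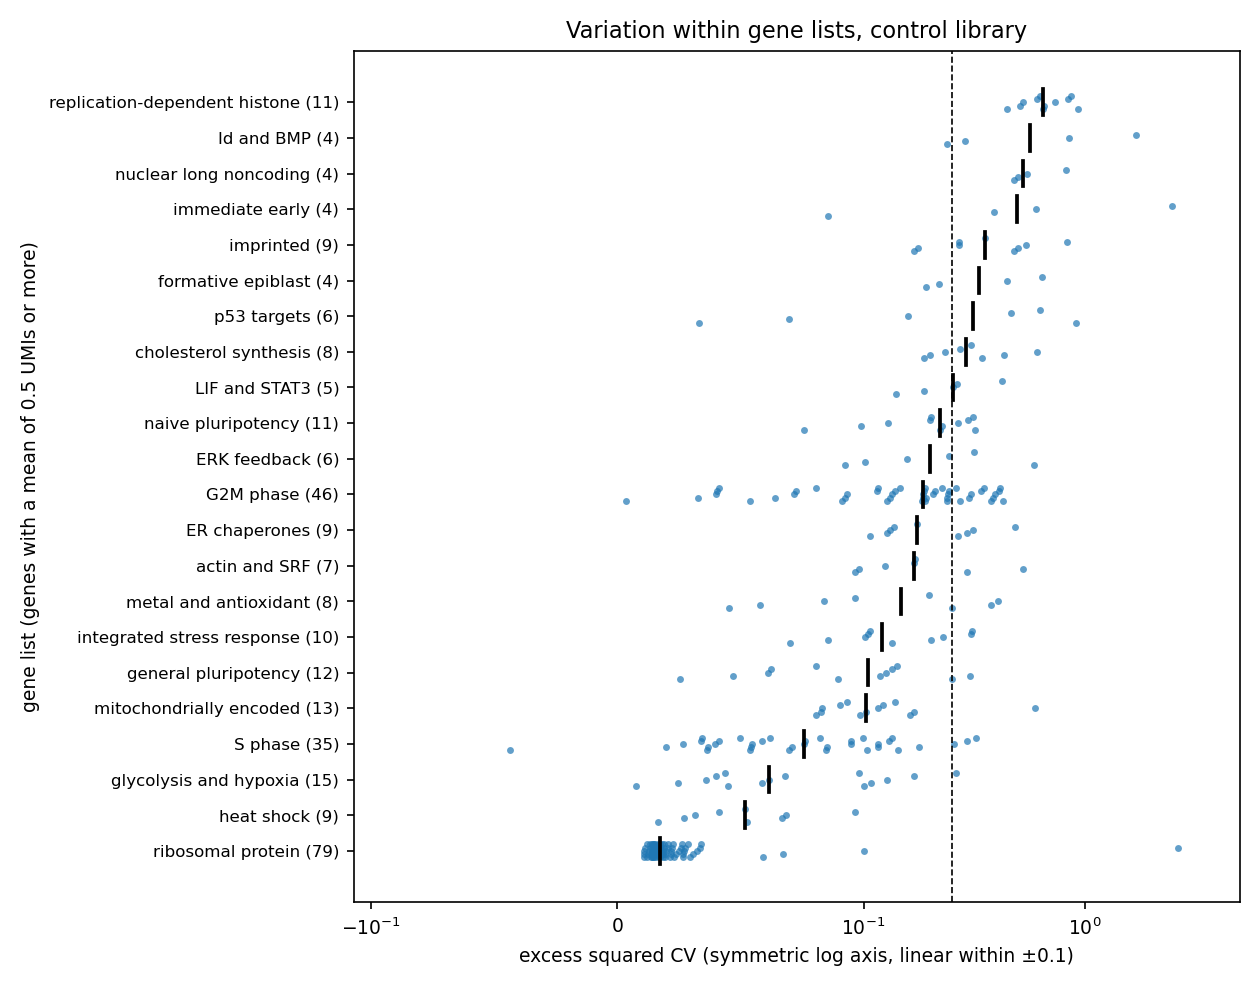
Excess squared CV (horizontal, symmetric log axis) of every list gene with a mean of at least 0.5 UMIs in the control library, 1 point per gene, for lists with 3 or more such genes (number in parentheses). Black bars are list medians and the dashed line is 0.25. Medians run from 0.017 for ribosomal protein genes to 0.647 for histone genes.

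Gene-gene correlation was measured as Pearson's r of log2(thinned UMIs + 1) across the 2187 cells, for 2151 genes with a mean of at least 1 UMI. These values describe cells that share a library, a culture and an equal thinned depth, and because each cell has the same total, a larger share of one class leaves less for the rest. Of 2312325 pairs, 4845 (0.21%) had an r of 0.2 or more and 2782 (0.12%) of -0.2 or less, around a median of 0.0025. All 66 pairs of mitochondrially encoded genes and all 15 pairs of histone genes were at 0.2 or more, with medians of 0.54 and 0.51. Of 2926 ribosomal protein pairs 1619 were, and they made up 33.4% of all high pairs. Pairs with neither gene in those families made up 2223 (45.9%) of the high pairs, but they were 2112540 of the 2312325 pairs measured. The highest values were 0.84 for mt-Co2 with mt-Co3 and 0.81 for Hist1h1b with Hist1h2ap. Of the high pairs, 69.1% were also high in the 3 h library, where 0.25% of all pairs were, and 56.1% in the 6 h library, where 0.17% were. Outside the families these shares were 44.6 and 31.8%.

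Outside the families the pairs of highest r fell into a few groups. The metallothionein genes Mt1 and Mt2, neighbours on chromosome 8 that buffer zinc and copper, had 0.66 (0.68 at 3 h and 0.74 at 6 h). Ncl, which encodes nucleolin, had 0.52 with Hnrnpu, a nuclear RNA-binding protein gene, and 0.50 with the mitochondrial chaperonin gene Hspd1. These 3 genes all lie on chromosome 1, and without the 96 cells of high chromosome 1 level the values were 0.52 and 0.48. Of pairs with both genes on chromosome 1 outside the families, 0.748% were at 0.2 or more, against 0.134% of pairs on any other single chromosome and 0.102% of pairs on different ones. Without the 96 cells these shares were 0.612, 0.124 and 0.106%, and the median r on chromosome 1 went from 0.0154 to 0.0053. Prc1, a spindle midzone protein gene, and Top2a, topoisomerase II alpha, had 0.50. Hspa5 had 0.48 with Hsp90b1 and 0.45 with Calr, all chaperones of the endoplasmic reticulum, and 12 of the 28 pairs of that list were at 0.2 or more with a median of 0.19.

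**Figure D5:**
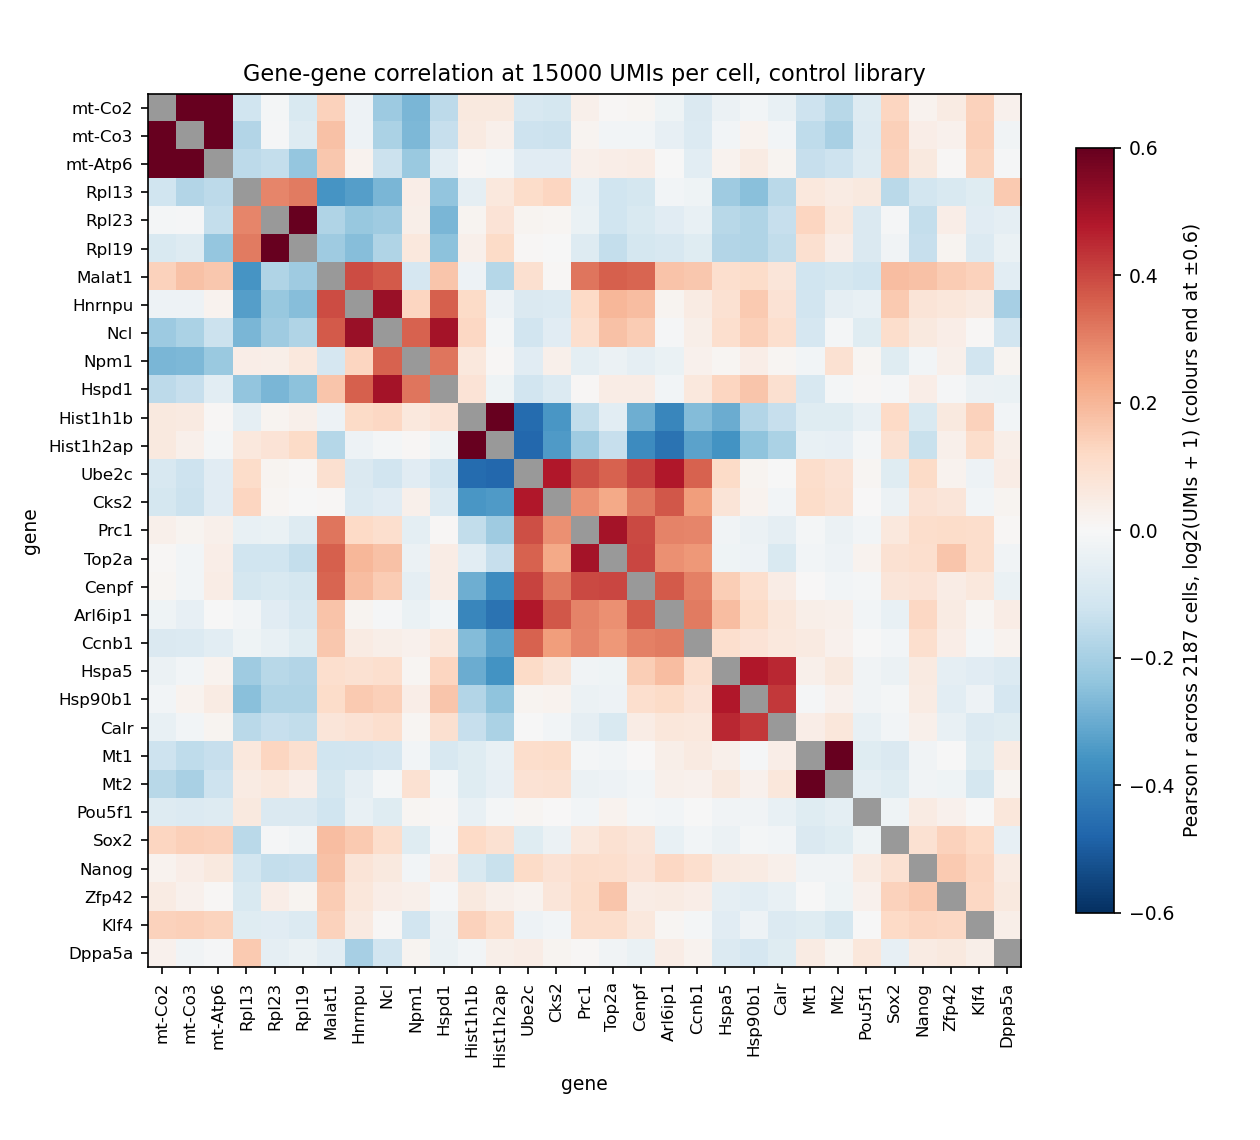
Pearson r across the 2187 control cells for 31 named genes, each cell thinned to 15000 UMIs (colours end at ±0.6; grey marks a gene with itself). Blocks of positive r hold mitochondrially encoded genes, ribosomal protein genes, Ncl with Hnrnpu and Hspd1, histone genes, mitotic genes and endoplasmic reticulum chaperones. Of the 6 stem cell markers in the last rows, Sox2, Nanog, Zfp42 and Klf4 have weak positive r with each other (0.093 to 0.158). Pairs of markers that include Pou5f1 or Dppa5a lie at -0.047 to 0.067.

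The lowest values set mitotic genes against histone genes. Ube2c had -0.47 with Hist1h2ap, Arl6ip1, a membrane protein gene, had -0.44, and Cenpf, a kinetochore protein gene, -0.38. With cycloheximide, Cenpf with Hist1h2ap had -0.16 at 3 h and 0.02 at 6 h, and Ube2c with Hist1h2ap had -0.38 and -0.28. Malat1 was at -0.2 or less with 53 of 77 ribosomal protein genes (median -0.26), and its lowest value was -0.40 with Rpl21. Of all pairs at -0.2 or less, 77.9% joined a ribosomal protein gene with a gene that is not one. Such pairs were 159698 of the 2312325 measured. Actb, cytoplasmic actin, had -0.38 with mt-Atp6 in the control and -0.12 at both times of cycloheximide.

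Partner counts of the stem cell markers are read beside 0.21% of all pairs at 0.2 or more. Of the 2150 other genes, 0 reached 0.2 with Pou5f1, Nanog, Zfp42 or Klf4, and 1 did with Sox2, the RNA-binding protein gene Hnrnpa3 (0.21). Among naive genes 0 of 36 pairs did. Their median r was 0.07, beside 0.0025 over all pairs, whose 99th percentile was 0.127. The r of Nanog with Zfp42 was 0.16 (0.17 at 3 h and 0.20 at 6 h). Dppa5a had 5 partners, 0.233% of the other genes and so near that background, led by the small heat shock gene Hspb1 (0.28) and by Ooep (0.27), an oocyte factor gene. At these counts a low r does not show that the genes vary apart, and depth limits it most for Nanog and Klf4, with means of 1.86 and 1.98 UMIs. Fos, with a mean of 0.664, and Mcm6, a replicative helicase gene, also had 0 partners at 0.2.

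Of 630 pairs in the G2M list, 127 were at 0.2 or more with a median r of 0.11, beside 0.21% and 0.0025 over all pairs. The S phase list had 0 of 300 pairs and 0.05, and histone genes had 15 of 15 and 0.51. Of 46 G2M genes above the floor, 12 (26.1%) reached an excess squared CV of 0.25, beside 7.22% of all genes. Cyclin B1 (Ccnb1), which drives entry into mitosis, had 23 partners at 0.2 or more, 1.07% of the other genes. The first were Ube2c (0.35), Arl6ip1 (0.31) and Cenpf (0.30). It also had 3 histone genes at -0.2 or less, where 0.12% of all pairs lay. The list genes of highest median r with the other 35 were Ube2c (0.23), Cenpf (0.20), Top2a (0.19) and Cks2, a subunit of cyclin-dependent kinases (0.18).

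The promoters of these 4 genes are shown because many G2M genes are known to be controlled through 2 kinds of element, the cell cycle genes homology region (CHR) and the CCAAT box bound by NF-Y. Each is the RefSeq promoter on GRCm38.p6, 250 bases before to 50 bases after the transcription start, 5′ to 3′ on the strand of the gene. Capitals mark the letters TTTGAA or TTCGAA, counted as a CHR, and the letters CCAAT. Both strands were searched, so a CHR that lies on the other strand shows as TTCAAA. The second element, when read there, shows as ATTGG. Ube2c lies at chr2:164769679-164769978 (plus strand), Cenpf at chr1:189688037-189688336 (minus strand), Top2a at chr11:99024140-99024439 (minus strand) and Cks2 at chr13:51644982-51645281 (plus strand).
Ube2c: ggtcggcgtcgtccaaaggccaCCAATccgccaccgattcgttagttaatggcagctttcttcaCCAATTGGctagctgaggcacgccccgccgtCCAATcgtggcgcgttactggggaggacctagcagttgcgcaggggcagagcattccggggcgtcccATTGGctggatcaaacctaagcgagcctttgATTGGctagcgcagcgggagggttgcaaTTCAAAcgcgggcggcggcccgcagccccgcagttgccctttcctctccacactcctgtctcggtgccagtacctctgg
Cenpf: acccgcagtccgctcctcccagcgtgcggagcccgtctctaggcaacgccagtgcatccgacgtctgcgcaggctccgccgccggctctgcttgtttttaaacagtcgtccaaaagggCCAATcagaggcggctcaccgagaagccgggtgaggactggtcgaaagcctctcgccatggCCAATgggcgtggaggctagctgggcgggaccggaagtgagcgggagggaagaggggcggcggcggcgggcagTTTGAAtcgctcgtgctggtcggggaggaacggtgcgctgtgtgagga
Top2a: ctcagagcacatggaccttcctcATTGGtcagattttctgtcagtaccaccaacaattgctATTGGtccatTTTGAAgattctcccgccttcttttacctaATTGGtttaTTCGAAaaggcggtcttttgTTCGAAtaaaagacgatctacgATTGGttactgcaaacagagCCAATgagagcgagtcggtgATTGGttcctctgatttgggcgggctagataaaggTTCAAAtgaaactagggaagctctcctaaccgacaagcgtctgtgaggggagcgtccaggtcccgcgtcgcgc
Cks2: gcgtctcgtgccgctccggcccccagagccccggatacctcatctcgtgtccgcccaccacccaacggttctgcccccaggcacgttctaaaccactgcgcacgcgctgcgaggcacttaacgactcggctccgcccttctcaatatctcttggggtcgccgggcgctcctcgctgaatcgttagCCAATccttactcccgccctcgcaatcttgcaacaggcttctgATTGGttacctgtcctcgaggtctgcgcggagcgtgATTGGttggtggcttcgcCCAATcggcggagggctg

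In these windows Ube2c held 6 CCAAT letters in either direction and a CHR at -29 from the start, Top2a 6 and 4, Cenpf 2 and 1, and Cks2 4 and 0. In Ube2c 2 of the CCAAT matches overlap. Of the 50 list genes 43 had entries, with 46 promoters. CHR letters were in 76.1% of them and in 19.2% of all 32851 promoters, CCAAT letters in 76.1% and 37.4%, and both in 63.0% and 7.52%. A match of letters is a description of the window and shows no binding.

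Principal components put the same groups in order. The first carried 3.72% of the variance of standardised log2 levels and set Malat1 (r of 0.63 with the component), Hnrnpu (0.61) and Hnrnpa3 (0.59) against Rps18 and Rpl13 (-0.63 and -0.62). It had an r of -0.84 with the summed ribosomal protein list, -0.01 with log10 total UMIs and 0.32 with the mitochondrial share. The second (1.20%) set Npm1 (0.57), Hspd1 and Ncl against mitochondrially encoded genes, and its r with the mitochondrial share was -0.59. The third (0.812%) set Ube2c (0.71) against Hist1h2ap (-0.65), with an r of 0.81 with the summed G2M list, -0.68 with histone genes and 0.23 with log10 total UMIs. The fourth (0.667%) set ribosomal protein genes against Apoe, Sparc and Pdia3. Among single genes, 4 of 2151 rose with log10 total UMIs at an r of 0.2 or more, led by Top2a (0.27), and 6 fell.

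Summed lists were compared in the same way, for 22 lists and 231 pairs, of which 8 (3.46%) had an r of 0.2 or more and 15 (6.49%) of -0.2 or less. The lowest was G2M against histone genes with -0.52, beside -0.28 at 3 h and -0.05 at 6 h. Nuclear noncoding RNAs against ribosomal protein genes had -0.50 (-0.49 and -0.42), and S phase genes against ribosomal protein genes -0.41 (-0.30 and -0.16). Glycolysis genes against mitochondrially encoded genes had -0.41 (-0.30 and -0.24) and actin genes against them -0.39 (-0.19 and -0.20). Endoplasmic reticulum chaperones had -0.32 with histone genes (-0.30 and -0.31). The naive list had 0.23 with G2M genes (0.13 and 0.14), 0.28 with nuclear noncoding RNAs (0.12 and -0.10, a change of sign) and -0.31 with ribosomal protein genes (-0.28 and -0.15). General pluripotency genes had 0.22 with glycolysis genes (0.10 and 0.15) and 0.22 with heat shock genes (0.11 and 0.09).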

How the data were processed

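The authors deposited, for each of 3 libraries of 1 sample, a matrix of whole-number UMI counts by gene and barcode that no cell call had trimmed. Cell Ranger 4.0.0 and mm10 are named in the submitters' processing notes, and the annotation is not given in the sources used here. The members, gene lists and limits were chosen with earlier results of these data known. Of 32285 features, 32158 matched GENCODE M21 (GRCm38). Thinning drew 15000 UMIs from every cell without replacement; this equals the minimum, so no member was lost. The computation of variability and correlation was tested on simulated data. Doublets were not called. Genes were named by rank: the 20 most abundant, the 25 most variable (15 highest and 10 lowest with a mean of at least 5), the 15 most dispersed rare genes, the highest and lowest pairs, marker partners, component loadings and list extremes. Genes given with Stmn2, chromosome 1, primitive endoderm UMIs and S100a6 were chosen after values were seen. Later symbols (Ccn1, Ccn2) replaced older ones, and Zscan4a is not analysed here; some genes that meet these rules are not reported here. Alternatives changed the depth, floors, cell limits, scale and free RNA. Python 3.11.15, numpy 2.4.6, scipy 1.17.1 and pandas 2.3.3 were used.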

Additional observations from a re-analysis of the deposited data

How the results depend on the processing

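Counts of correlated pairs depended on depth and on the lower mitochondrial limit. Pairs with an r of 0.2 or more numbered 4845 at 15000 UMIs per cell, 15576 when cells were thinned to 1.83 times that depth (shallower cells left out), 44251 with unthinned counts scaled to 15000, and 12425 without the lower mitochondrial limit. Pairs at -0.2 or less numbered 2782, 10941, 26283 and 9606 in the same order, list sums at 0.2 or more 8, 15, 23 and 27, and the first component carried 3.72, 4.04, 7.26 and 5.33% of variance. Without cells above 2 times the median UMIs there were 5 such list sums and the component carried 3.76%, with only cells of at least that greater depth 3.50%, and on linear counts 3.84%. The median excess squared CV of 0.0615 became 0.0654 with the deeper thinning, 0.0596 unthinned, 0.0665 without the lower mitochondrial limit, 0.0548 with only cells of at least that greater depth, 0.0627 without cells above 2 times the median, and 0.0768 or 0.0487 with the floor at 0.2 or 1 UMI, where 895 and 106 genes were called in place of 274. The 20 most abundant genes held 12.5% of UMIs, and 12.7% with 10% free RNA subtracted, 12.4% without the lower mitochondrial limit, 12.5% with only cells of at least that greater depth and 12.5% without those above 2 times the median. After regression on log10 total UMIs and mitochondrial share, r of mt-Atp6 and mt-Co3 went from 0.76 to -0.00244, since the genes make up that share. Alternatives added after the data were seen left out the cells of high chromosome 1 level, those of high primitive endoderm UMIs, and genes at 2 times or more in free RNA, giving 258 to 261 variable genes and 4813 to 4967 high pairs. Of the named genes 4 of 40, of the named pairs 5 of 40, of the list medians of excess squared CV 3 of 22 and of the list medians of r 13 of 19 crossed their limit in some alternative. No paired analysis was possible because each group is 1 library.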
